A study of Mus musculus with 6 samples.

Results

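The genes described here are the small nucleolar RNA (snoRNA) genes of mouse splenic B cells, 142 of the 54446 genes in the deposited values. They are the rows whose gene is typed as snoRNA in the Gencode annotation and whose symbol starts with *Snord*, *Snora* or *Scarna*. *Snord* is the prefix of box C/D snoRNAs (98 genes), *Snora* that of box H/ACA snoRNAs (42 genes) and *Scarna* that of the small RNAs of Cajal bodies (2 genes, *Scarna9* and *Scarna10*). Another 7 *Scarna* genes carry the annotation type scaRNA and are given only beside the others, and 1365 further snoRNA-typed genes have other kinds of symbol and serve as a comparison. The rule uses type and symbol and no measured value, but earlier results of these data were known when it was chosen.

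The libraries came from naive B cells that were purified by negative selection from spleens of *Tent5c* KO mice and WT littermates on a mixed C57BL/6J X CBA background, 12 to 15 weeks old, and cultured for 7 days with LPS at 20 µg/ml plus IL-4 at 20 ng/ml as activators. TENT5C is a cytoplasmic poly(A) polymerase that lengthens the tails of mRNAs, including those for immunoglobulins. There were 3 KO and 3 WT libraries of rRNA-depleted, stranded RNA, and each replicate number marks 1 KO animal and 1 WT littermate, which the labels also give as a batch. The comparison asks whether loss of TENT5C goes with a different level of an RNA, here of snoRNAs. Values are normalized counts, that is, fragments per gene divided by a size factor of the library.

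Depth ran from 5393558 fragments on genes (WT replicate 3) to 6793520 (KO replicate 3), and 3 fragments equalled 2.72 to 3.61 normalized counts. The normalized count of *Tent5c* itself was 1993, 993 and 1170 in KO replicates 1 to 3 and 1255, 767 and 1584 in WT (log2 fold change 0.20, SE 0.19, adjusted p = 0.970, limma with Benjamini-Hochberg adjustment). The transcript was thus not lower in the libraries labelled KO. The methods link the KO to CRISPR/Cas9, and what the allele removes is not given in the sources used here, so the count of the whole transcript may not check the label, and KO below means the libraries labelled KO. The summed B cell markers lay between 26260 and 30748 and plasma cell markers between 5332 and 11020. T cell markers lay between 5.23 and 40.9 and myeloid markers between 18.1 and 129. The 3 red cell markers summed to 0 to 0.953 in KO and to 0 in WT libraries, with *Hbb-bs* and *Hba-a1* at 0 in all libraries.

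snoRNAs are short, stable noncoding RNAs of the nucleolus. Box C/D snoRNAs pair with ribosomal RNA and guide fibrillarin (FBL) to methylate the ribose of a nucleotide, and box H/ACA snoRNAs guide dyskerin (DKC1) to turn a uridine into pseudouridine. A few, such as U8 (*Snord118*), U13 (*Snord13*) and U17 (*Snora73*), act mainly in the processing of the rRNA precursor, and Cajal body RNAs guide the modification of spliceosomal snRNAs. Most vertebrate snoRNAs lie in introns of ribosomal protein, translation factor or noncoding host genes and are cut out of the spliced intron, while U8 and U13 have promoters of their own. Mature snoRNAs carry no poly(A) tail, and they are seen here because the libraries were made by rRNA depletion and not by poly(A) selection.

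The sequences that follow are those of some of the C/D genes on which the results turn, from the longest, whose level varied least between libraries, to short ones, whose level varied most. Capitals mark the C box searched for (TGATGA within the first 20 nt) and the D box (CTGA within the last 20 nt). They are the annotated Gencode transcripts, written as DNA from 5′ to 3′ on the gene's own strand. On GRCm38, *Snord17* is at chr2:144265979-144266216 (minus strand, intron of *Snx5*), *Snord15a* at chr7:99482785-99482932 (minus, intron of *Rps3*), *Snord83b* at chr15:80078498-80078591 (minus, intron of *Rpl3*), *Snord104* at chr11:106500993-106501062 (plus, inside no other gene of that strand) and *Snord49b* at chr11:62603079-62603150 (plus, intron of *2410006H16Rik*).
Snord17: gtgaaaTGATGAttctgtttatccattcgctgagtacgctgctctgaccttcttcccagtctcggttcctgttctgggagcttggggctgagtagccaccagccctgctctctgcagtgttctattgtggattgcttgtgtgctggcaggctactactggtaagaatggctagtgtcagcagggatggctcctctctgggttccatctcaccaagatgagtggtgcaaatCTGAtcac
Snord15a: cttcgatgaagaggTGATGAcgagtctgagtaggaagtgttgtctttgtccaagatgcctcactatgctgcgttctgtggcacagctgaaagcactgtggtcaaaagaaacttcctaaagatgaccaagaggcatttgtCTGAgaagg
Snord83b: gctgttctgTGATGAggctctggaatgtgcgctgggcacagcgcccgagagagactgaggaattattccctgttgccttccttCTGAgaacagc
Snord104: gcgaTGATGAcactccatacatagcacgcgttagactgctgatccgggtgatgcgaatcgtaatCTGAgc
Snord49b: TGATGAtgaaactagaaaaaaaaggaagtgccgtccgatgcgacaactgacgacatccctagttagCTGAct

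The H/ACA genes are shown for the same reason, and *Snora73a* is set beside *Snora73b* because the near-identical copies were listed at very different levels. Capitals mark the ACA that ends 3 nt before the 3′ end. *Snora73b* is at chr4:132352322-132352526 and *Snora73a* at chr4:132352775-132352979, both on the minus strand within *Snhg3*. *Snora23* is at chr7:110046364-110046547 (plus, intron of *Ipo7*) and *Snora21* at chr11:97781639-97781775 (minus, intron of *Rpl23*).
Snora73b: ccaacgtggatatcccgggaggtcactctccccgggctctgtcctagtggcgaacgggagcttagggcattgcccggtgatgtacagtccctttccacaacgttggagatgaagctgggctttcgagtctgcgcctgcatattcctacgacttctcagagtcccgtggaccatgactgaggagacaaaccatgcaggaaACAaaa
Snora73a: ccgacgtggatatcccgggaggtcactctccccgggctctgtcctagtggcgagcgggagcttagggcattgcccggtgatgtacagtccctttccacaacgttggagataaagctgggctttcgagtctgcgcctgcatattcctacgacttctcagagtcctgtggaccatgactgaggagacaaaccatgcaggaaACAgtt
Snora23: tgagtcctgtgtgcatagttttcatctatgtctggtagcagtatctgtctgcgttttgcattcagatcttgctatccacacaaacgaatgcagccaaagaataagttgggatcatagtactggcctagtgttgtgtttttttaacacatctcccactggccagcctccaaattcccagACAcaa
Snora21: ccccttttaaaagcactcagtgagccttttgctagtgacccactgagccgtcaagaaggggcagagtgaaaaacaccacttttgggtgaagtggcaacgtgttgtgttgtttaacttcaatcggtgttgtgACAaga

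These boxes matched the class named by the symbol in most genes. TGATGA near the 5′ end was found in 70 of 98 *Snord* and 0 of 42 *Snora* genes, CTGA near the 3′ end in 96 of 98 and 5 of 42, and an ACA 3 nt from the end in 0 of 98 and 35 of 42. Among all annotated snRNA genes the same letters were found in 0.0723%, 3.98% and 0.940%. Both *Scarna* members held both C/D boxes. The letters were searched on the transcript strand only, and a gene without a match may hold another form of the box.

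Of the 142 snoRNA genes, 66 had at least 1 fragment in some library and 76 were at 0 in all 6 libraries, each of which allows up to 3 fragments per library by counting error alone. A total of 51 reached a mean normalized count of 10 and entered the test (37 *Snord*, 13 *Snora* and *Scarna9*), and 15 had fragments below that mean. The genes at 0 fell mostly into 2 groups. The first was genes that lie under an exon of another gene on the same strand: 70 of the 142 did so, 58 of them were at 0, and 1 (*Snord66*, with 1.33% of its length under an exon of *Eif4g1*) was tested, with a mean of 147. Under the stated counting options, a fragment that touches exons of more than 1 gene is counted for none, so these genes at 0 are no measure of the RNA. The second was the 17 *Snord116l* copies, which lie in an intron of *Snhg14* on chromosome 7 between 59861731 and 59904848 and share 4 distinct sequences of 94 nt. These belong to the imprinted Prader-Willi region, known for its expression in neurons, and identical copies also lose fragments to the filter on mapping quality. The last gene at 0 was *Snora35*, in *Htr2c*, a serotonin receptor gene. Of the 55 genes outside both groups, including *Snora35*, 54 had fragments and 50 were tested.

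The host genes show the same division. All 4 snoRNA genes in *Gas5*, all 5 in *Snhg12*, all 3 in *Hspa8* and *Snord22*, the 1 in *Snhg1*, lie under annotated exons, and all were at 0. In *Rpl13a*, 1 of 4 genes lies under an exon and the other 3 (*Snord32a*, *Snord34* and *Snord35a*) were tested, as were all 3 of *2410006H16Rik* (*Snord49a*, *Snord49b* and *Snord65*). *Snora73a* and *Snora73b* are identical at 198 of 205 positions (96.6%). The normalized count of *Snora73a* was 8.49, 6.67 and 9.08 in KO and 7.56, 7.32 and 4.82 in WT, whereas *Snora73b* had 14391, 13860 and 11506 in KO and 12400, 14575 and 15153 in WT. The annotation puts 77.6% of *Snora73a* under an exon of *Snhg3* and none of *Snora73b*, so the difference between the copies cannot be told apart from the counting rule.

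**Figure D1:**
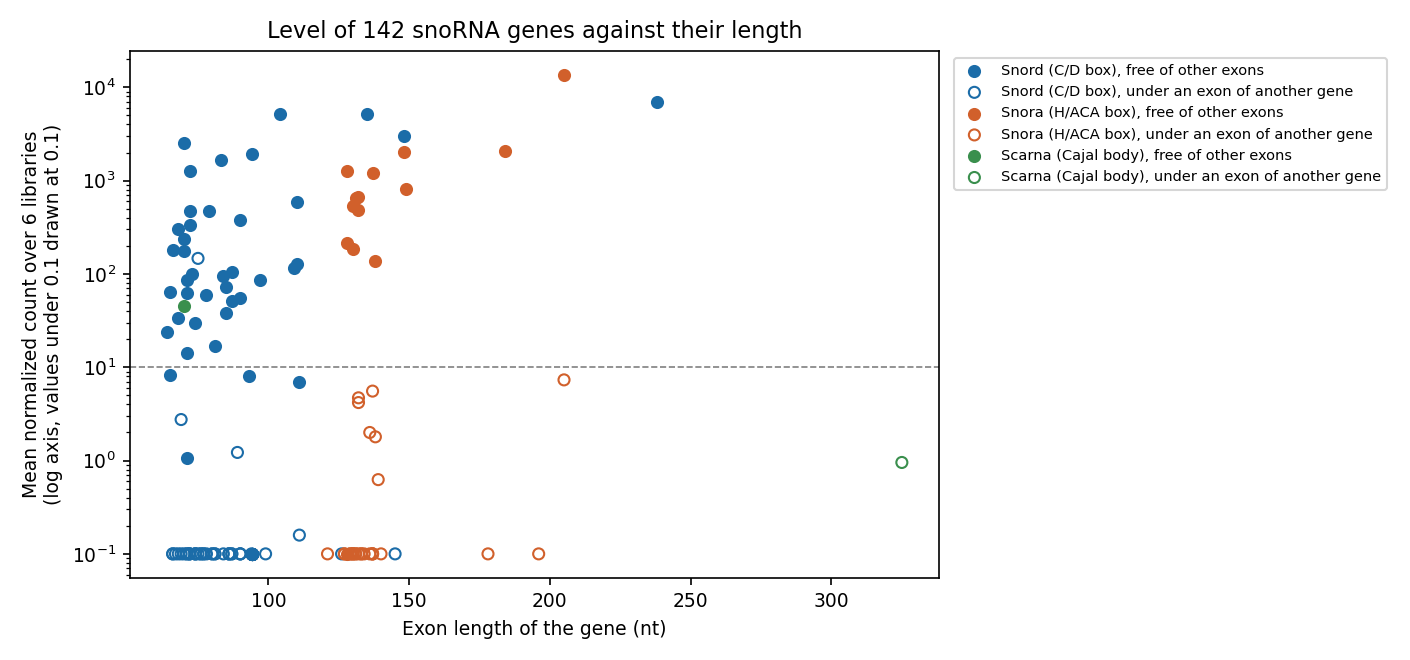
Mean normalized count over 6 libraries (log axis, with values under 0.1 drawn at 0.1) against exon length in nt for the 142 snoRNA genes. Filled points are free of exons of other genes and open points are not, and the dashed line is the mean of 10 needed for the test. The one open point above the line is *Snord66*.

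Among the genes free of other exons, H/ACA genes were listed at higher levels than C/D genes. The median of the mean normalized count was 659 for 14 *Snora* and 55.7 for 57 *Snord* genes, and per 100 nt of length it was 501 and 61.9. Over all 42 and 98 genes of the classes, with those under other exons, both medians were 0. This is a description of genes and not of replicates, and the *Snord* median includes the 17 *Snord116l* genes at 0. Among tested genes the median per 100 nt was 503 in 13 *Snora* and 138 in 37 *Snord* genes. Tested C/D genes were 64 to 238 nt long with a median of 79 nt, and tested H/ACA genes 128 to 205 nt with a median of 132 nt. Spearman's rho of length with mean normalized count was 0.58 across the 51 tested genes, 0.35 within *Snord* and 0.55 within *Snora*. The difference in level between the classes thus goes together with one in length, and the part of length was not tested.

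Per 100 nt, the tested genes of U17, U13 and U8, named above as processing snoRNAs, stood near the top of the list. *Snora73b* (U17), which is needed for the small ribosomal subunit, had a mean of 6657 normalized counts per 100 nt, *Snord13* (U13) 4958 and *Snord118* (U8), which is needed for the large subunit, 3832. The C/D genes *Snord104*, *Snord17*, *Snord83b* and *Snord15a* followed with 3629, 2913, 2048 and 2032 per 100 nt. The order of *Snord118*, *Snord104* and *Snord13* changed between libraries, so these neighbours did not differ beyond their spread. *Scarna9*, which guides modification of U2 snRNA, had 64.6 per 100 nt, and *Scarna10* had fragments in KO replicate 3 and WT replicate 3 alone, at 0.908 and 4.82 normalized counts.

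None of the 51 tested snoRNA genes passed the test between KO and WT (0 with adjusted p under 0.05 in limma with Benjamini-Hochberg adjustment, smallest adjusted p 0.970), where 0% of the 12322 genes tested did. At an unadjusted p under 0.05, 0 snoRNA genes were lower and 0 higher, against 3.03% and 1.67% of all genes. edgeR also called 0 of the 51 at either threshold. DESeq2 was fitted without the filter to 66 snoRNA genes, of which 45 had an adjusted p, and called 0 at either threshold. The fitted log2 fold changes, on log2(normalized count + 1), were negative for all 51, from −1.05 (*Snord58b*) to −0.05 (*Snord17*), with medians of −0.66 for *Snord*, −0.39 for *Snora* and −0.38 for *Scarna9*. Their standard errors ran from 0.08 to 0.89, and the common sign is a mean over pairs that pointed in opposite directions.

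Pair 1 went against pairs 2 and 3. In pair 1, 50 of 51 snoRNA genes were higher in KO than in the WT littermate (46.8% of all genes tested were), in pair 2, 46 were lower (49.9%), and in pair 3, all 51 were lower (49.5%). The order of higher, lower and lower over pairs 1 to 3 was found in 45 of the 51 (12% of all genes). The 6 others were *Snora23*, *Snord13*, *Snord70*, *Snord59a*, *Snord4a* and *Snord72*, the last being the only one lower in KO in all 3 pairs (13.1% of all genes). None was higher in all 3 (11.7%), and in none did KO and WT values stand apart without overlap (6.83%). The median difference between KO and WT on the log2 scale was 0.97, −0.39 and −2.35 in pairs 1 to 3, so the mean of the 3 medians, −0.59 ± 1.67 (SD, n = 3), was smaller than its spread.

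The same libraries stood at the ends in nearly every gene. WT replicate 3 was the highest of the 6 in 45 of 51 snoRNA genes (23.1% of all genes tested), KO replicate 3 the lowest in 48 (13.2%), and both held in 42 (4.58%). snoRNA genes together took 1.07%, 0.832% and 0.575% of the fragments in KO replicates 1 to 3 and 0.707%, 0.956% and 1.19% in WT. The means, 0.826% ± 0.248 and 0.951% ± 0.243 (SD, n = 3 each), differed by less than the spread within a genotype. The library with the largest share was the shallowest and the one with the smallest share the deepest. At nearly equal depths of 6650817 and 6669652 fragments, however, KO replicate 1 and WT replicate 1 had shares of 1.07% and 0.707%. The part of depth or of library preparation in this was not tested. In bulk RNA, fewer cells with an RNA and less of it per cell cannot be told apart.

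Of the processing snoRNAs named above, U8 and U13 are C/D genes. *Snord118* (135 nt) had 6676, 4193 and 3238 normalized counts in KO and 3993, 5602 and 7340 in WT. KO replicate 1 lay between the 2 highest WT libraries, KO replicate 2 within the WT range and KO replicate 3 below it (log2 fold change −0.29, SE 0.32). *Snord13* (104 nt) had 9495, 4403 and 1642 in KO and 4350, 4378 and 6669 in WT, with the highest and the lowest library of all both labelled KO (log2 fold change −0.30, SE 0.51). Its means, 5180 ± 3984 in KO and 5132 ± 1331 in WT (SD, n = 3 each), differed by far less than the libraries of either genotype did among themselves.

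Other C/D genes split by size. *Snord17*, the longest at 238 nt, had 7323, 6429 and 6669 in KO and 6683, 6871 and 7620 in WT, and its highest library was 1.19-fold its lowest (log2 fold change −0.05, SE 0.08). *Snord15a* (148 nt), in an intron of the ribosomal protein gene *Rps3*, had 3438, 2885 and 2461 in KO and 2747, 3096 and 3417 in WT, a 1.40-fold range. The genotypes overlapped in both. *Snord104* (70 nt) had 2817, 2488 and 826 in KO and 1429, 3044 and 4637 in WT, a 5.61-fold range with KO replicate 3 far below the rest (log2 fold change −0.60, SE 0.57). *Snord83b* (94 nt), in an intron of *Rpl3*, had 2332, 1694 and 514 in KO and 1033, 2310 and 3669 in WT, a 7.14-fold range. *Snord49b* (72 nt) had 1483, 972 and 335 in KO and 786, 1645 and 2448 in WT, a 7.31-fold range. In all 3 of these short genes WT replicate 1 was the second lowest library, and KO replicate 3 the lowest.

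The widest range was that of *Snord58b* (66 nt), in an intron of *Rpl17*. It had 236, 136 and 24.5 normalized counts in KO and 103, 174 and 407 in WT, a 16.6-fold range, and its KO to WT difference was 1.19 in pair 1 and −4.00 in pair 3 on the log2 scale. *Snord72* (81 nt), in an intron of *Rpl37*, was an exception among short genes, with 14.2, 18.1 and 11.8 in KO and 15.1, 20.9 and 20.5 in WT. Its range was 1.77-fold at counts close to the limit for the test (log2 fold change −0.34, SE 0.31). Genes of 1 host had the same sign in pairs 1 and 3 in all 5 hosts with several tested genes. Nearly all tested snoRNA genes shared these signs, with 50 of 51 higher in KO in pair 1 and 51 lower in pair 3. In pair 2 the signs differed within *Rpl23a* and *Nop58* only. The 3 in *2410006H16Rik* differed between KO and WT by 0.73 to 1.40 in pair 1, −0.76 to −0.42 in pair 2 and −3.13 to −2.87 in pair 3, and the 3 tested in *Rpl13a* by 0.97 to 1.25, −0.59 to −0.39 and −3.12 to −2.48. In *Rpl23a*, *Snord42a* differed by 1.41, −1.36 and −2.86 and *Snord4a* by 0.51, 0.16 and −1.24. In *Wdr43*, *Snord53* differed by 0.82, −0.97 and −1.86 and *Snord92* by 0.89, −0.06 and −2.35, and in *Nop58*, *Snord11* and *Snord70* had pair 2 differences of −0.57 and 0.68.

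Some hosts of C/D genes encode nucleolar proteins themselves. *Snord110* (68 nt) lies in an intron of *Nop56*, a C/D core protein gene, and had 358, 249 and 78.1 in KO and 161, 367 and 620 in WT, a 7.94-fold range. *Snord11* (84 nt) and *Snord70* (87 nt) lie in introns of *Nop58*, the other scaffold gene, the first with 111, 76.3 and 29.1 in KO and 52.9, 114 and 187 in WT and the second with 74.6, 61.0 and 12.7 in KO and 34.0, 37.6 and 87.9 in WT. *Snord82* (70 nt), in an intron of the nucleolin gene *Ncl*, had 217, 133 and 68.1 in KO and 98.2, 193 and 349 in WT. KO replicate 3 was the lowest library and WT replicate 3 the highest in all 4 genes, and in *Snord70* the WT libraries 1 and 2 lay close together, so that it was the one of the 4 that was higher in KO in pair 2.

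As a class, the tested H/ACA snoRNAs varied less, with a median SD over libraries of 0.53 on the log2 scale against 0.94 in C/D genes. This did not hold from 128 nt to under 150 nt, where it was 0.54 in 11 H/ACA genes and 0.33 in 2 C/D genes. *Snora73b* (205 nt), the member with the highest normalized count, had a mean of 13252 ± 1535 in KO and 14042 ± 1452 in WT (SD, n = 3 each), a 1.32-fold range over libraries (log2 fold change −0.08, SE 0.12). *Snora23* (184 nt) had 2220, 2199 and 1718 in KO and 1817, 2188 and 2364 in WT, and its littermates in pair 2 were nearly equal. For both, the 3 KO values lay mostly within the WT range. *Snora57* (148 nt) had 2230, 1797 and 1442 in KO and 1393, 2522 and 2896 in WT, *Snora78* (128 nt) 1601, 1159 and 664 in KO and 963, 1354 and 1839 in WT, and *Snora21* (137 nt) 1493, 1165 and 663 in KO and 866, 1360 and 1699 in WT. In *Snora78* and *Snora21* KO replicate 3 was lowest and WT replicate 3 highest, and in *Snora57* WT replicate 1 was lowest. The H/ACA gene with the widest range was *Snora20* (128 nt, in *Tcp1*), with 228, 197 and 80.8 in KO and 122, 254 and 411 in WT, a 5.08-fold range. Over the 13 *Snora* genes the median KO to WT difference was 0.77, −0.29 and −1.47 in pairs 1 to 3, against 1.11, −0.42 and −2.63 over the 37 *Snord* genes.

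*Scarna9* (70 nt), in an intron of *Cep295*, had 66.1, 35.3 and 19.1 normalized counts in KO and 27.4, 51.2 and 72.2 in WT, the order of libraries seen in the short C/D genes (log2 fold change −0.38, SE 0.53). The long Cajal body RNA *Scarna2* (414 nt, typed scaRNA), which also guides modification of U2, had 3526, 3632 and 3252 in KO and 3470, 3464 and 3729 in WT. Its range was 1.15-fold. The 6 tested *Scarna* genes of that type had median differences of 0.47, 0.08 and −0.53 in pairs 1 to 3.

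**Figure D2:**
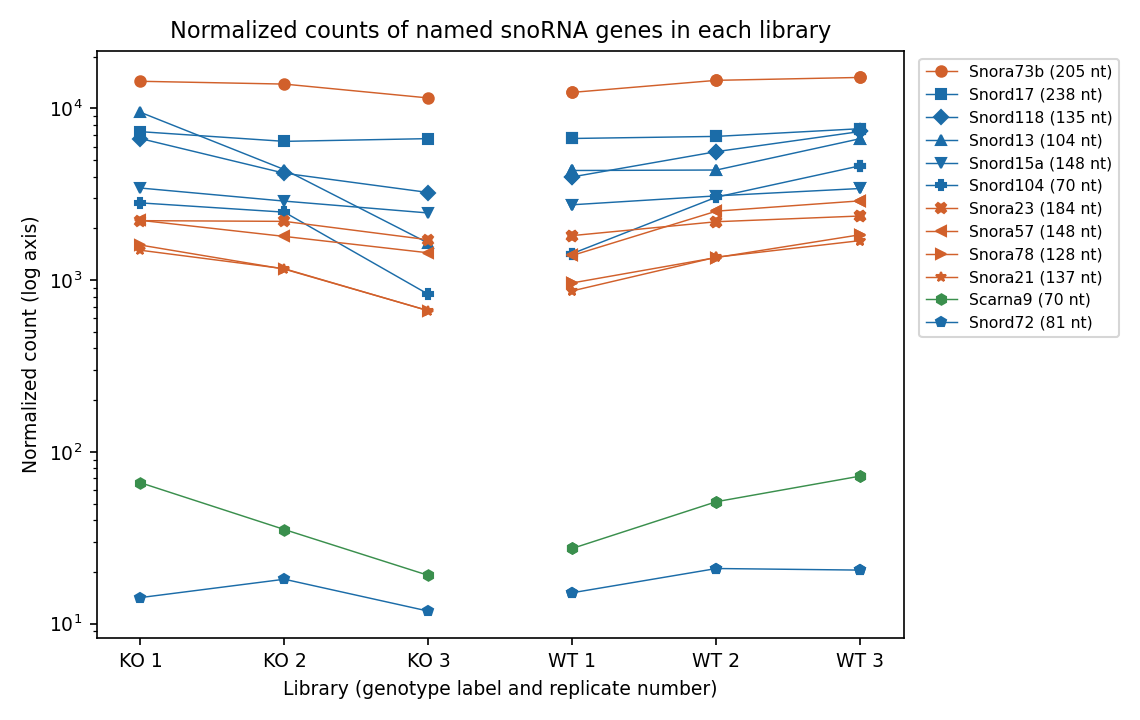
Normalized count (log axis) of 12 snoRNA genes in each of the 6 libraries, with lines joining the libraries of a genotype and the length of each gene in the legend. The lines of *Snora73b*, *Snord17* and *Snord15a* are nearly flat, and that of *Snord104* drops from 2817 in KO replicate 1 to 826 in KO replicate 3 and climbs from 1429 to 4637 over the WT libraries, which have no order in time.

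Among the 51 tested snoRNA genes, the size of the differences followed gene length. For the 20 snoRNA genes under 80 nt the median KO to WT difference on the log2 scale was 1.15, −0.45 and −2.80 in pairs 1 to 3. It was 1.11, −0.42 and −2.64 for the 11 genes of 80 to 99 nt and 1.02, −0.13 and −1.99 for the 4 of 104 to 110 nt. The 13 genes from 128 nt to under 150 nt had 0.77, −0.36 and −1.47, and the 3 of 150 nt and over (*Snora73b*, *Snora23* and *Snord17*) had 0.21, −0.07 and −0.40. The medians in pairs 1 and 3 shrank from the shortest to the longest range and kept their signs. Across the 51 genes, Spearman's rho of length with the difference was −0.47 for pair 1, 0.41 for pair 2 and 0.65 for the third, and within *Snord* (n = 37) it was −0.15, 0.37 and 0.45 in pairs 1 to 3. Within *Snora* (n = 13) it was −0.62, 0.44 and 0.60, so that among C/D genes length and the pair 1 difference were only weakly related. The genes share the 6 libraries, so these are descriptions across genes and not tests.

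Length and class went together, since 30 of the 37 tested *Snord* genes were under 100 nt and no tested *Snora* gene was. In the range from 128 nt to under 150 nt, which holds both classes, the 2 *Snord* genes (*Snord15a* and *Snord118*) had 0.53, −0.26 and −0.83 and the 11 *Snora* genes 0.79, −0.36 and −1.59. At that length the C/D genes had the smaller differences, and with 2 genes no more than their own values can be given. The pattern was also present at higher counts, where the 15 genes under 100 nt with a mean of at least 100 had 1.15, −0.42 and −2.87. The mean level had a Spearman's rho with the pair 3 difference of 0.09 within *Snord* and 0.75 within *Snora*, and GC content one of 0.12 across the 51 genes.

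**Figure D3:**
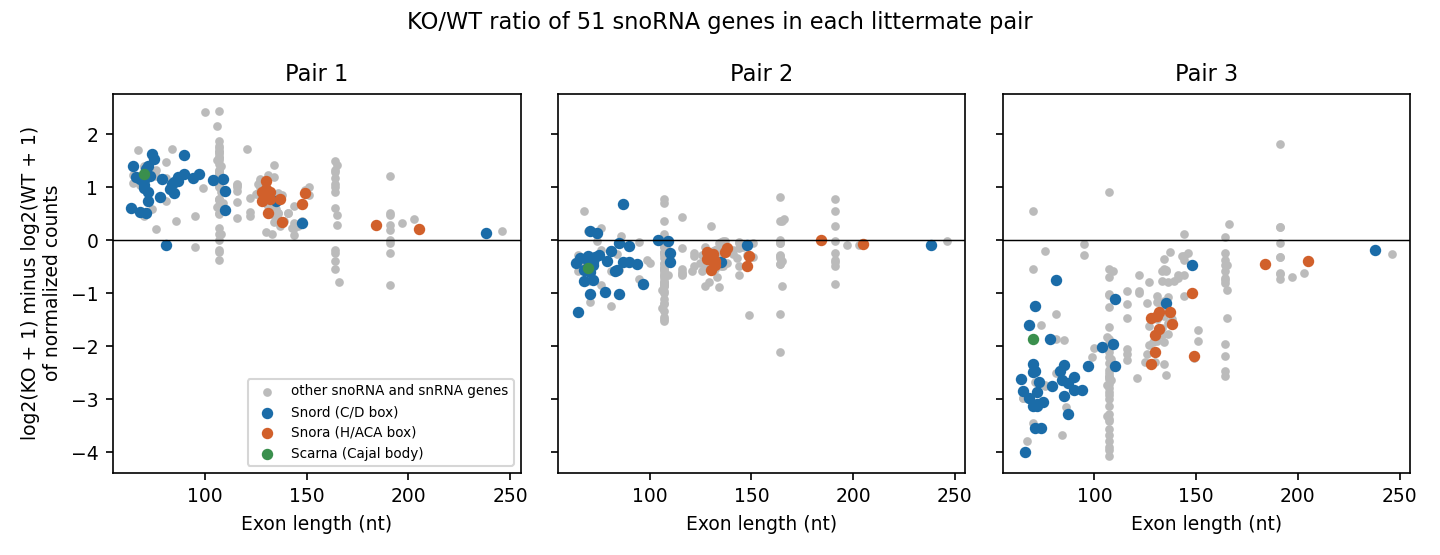
KO to WT difference in each littermate pair, on log2(normalized count + 1), against exon length in nt for the 51 tested snoRNA genes (coloured by class) and the other snoRNA and snRNA genes tested (grey). Coloured points under 100 nt sit mostly above 0 in pair 1 and far below 0 in pair 3, and the 3 coloured points of 150 nt and over lie close to 0 in all panels, while grey points of that length spread from −2.56 to 1.81 in pair 3.

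**Figure D4:**
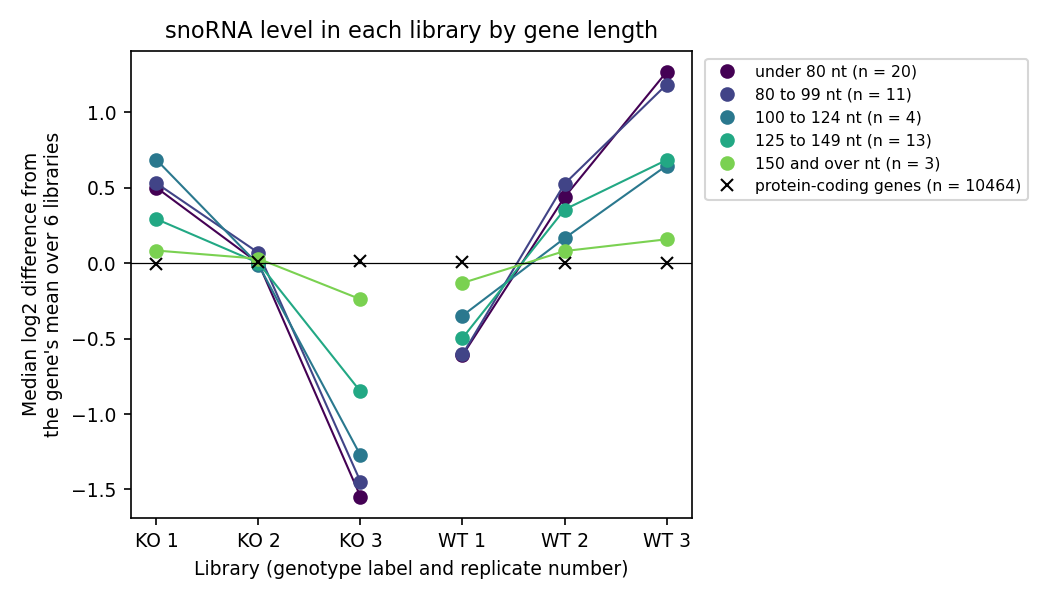
Median difference of each library from a gene's own mean over the 6 libraries, on the log2 scale, for snoRNA genes in 5 length ranges (lines) and for protein-coding genes (crosses, n = 10464). The lines fan out with shorter length, most in KO replicate 3 and WT replicate 3, and the crosses stay near 0.

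The same order of pairs was present in other short RNA genes, so it was not particular to the *Snord*, *Snora* and *Scarna* genes. The 85 tested snRNA genes had median differences of 0.95, −0.42 and −1.95 in pairs 1 to 3, and the 70 other snoRNA-typed genes 0.67, −0.30 and −1.26. The 20 tested miRNA genes, counted as precursors, had 0.61, −0.35 and −0.81. Protein-coding genes had −0.01, 0.01 and 0.01. In shares of fragments, members under 150 nt differed by 0.88, −0.31 and −1.68 on the log2 scale and those of 150 nt and over by 0.20, −0.05 and −0.26. Differences in RNA recovery or fragment size between libraries were not measured and their part was not tested.

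Most host genes had far smaller differences. Of the 51 tested snoRNA genes, 45 lie in a tested host gene, 1 in a host that was not tested and 5 in none. The 38 distinct hosts, of which 11 encode ribosomal proteins and 6 are noncoding, had median KO to WT differences of −0.02, −0.02 and 0.04 in pairs 1 to 3. At adjusted p 0 passed, as over all genes (0%), and at an unadjusted p under 0.05 1 was lower (*Rbmx*, host of *Snord61*, log2 fold change −0.24, SE 0.08) and 0 were higher, against 3.03% and 1.67% of all genes. *Rps3*, host of *Snord15a*, had 15429, 16299 and 14900 normalized counts in KO and 16405, 16694 and 15147 in WT. *Rpl17*, host of *Snord58b*, had 10089, 11147 and 11416 in KO and 10345, 10541 and 10213 in WT, a pair 3 difference of 0.16 beside −4.00 in its snoRNA. The SD over the 6 libraries on the log2 scale was larger in the snoRNA gene than in its host in 43 of 45 cases, with medians of 0.88 and 0.09. The exceptions were *Snora73b* with *Snhg3* and *Snora78* with *Snhg9*.

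The hosts with the largest SD over libraries were *Snhg9* and *Gm42715*. *Gm42715*, around *Snora30*, had 17.9, 14.3 and 16.3 normalized counts in KO and 17.9, 24.0 and 6.02 in WT, with a pair 3 difference of 1.30 beside −1.79 in *Snora30*. *Snhg9* is a noncoding gene that spans *Snora78*. It had 46.2, 30.5 and 22.7 normalized counts in KO and 20.8, 35.5 and 84.3 in WT, so that its pair differences were 1.12, −0.21 and −1.85 beside 0.73, −0.22 and −1.47 in *Snora78*. *Snhg9* and *Snora78* share the locus, and whether some fragments on *Snhg9* come from the snoRNA was not tested. Across the 45 genes, Spearman's rho between the log2 fold change of snoRNA gene and host was −0.04.

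**Figure D5:**
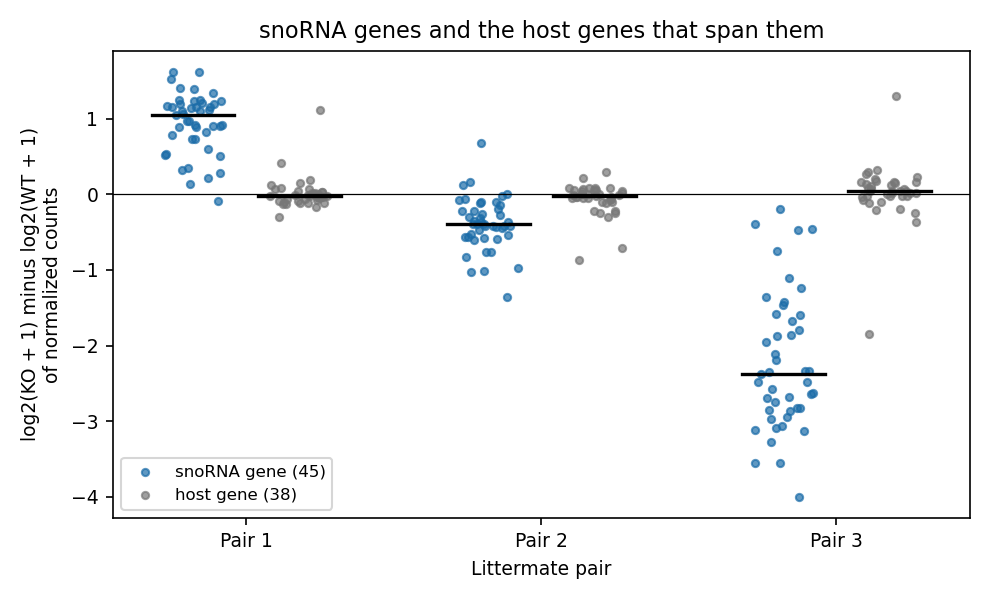
KO to WT difference on log2(normalized count + 1) in each littermate pair for 45 snoRNA genes (blue) and their 38 host genes (grey), with bars at the medians. Blue points move from mostly above 0 in pair 1 to far below 0 in pair 3, and most grey points stay near 0. Grey points far from 0 include *Snhg9*, at 1.12 in pair 1 and −1.85 in pair 3. Others are *Gm42715*, at −0.71 in pair 2 and 1.30 in pair 3, and *Rps3a1*, at −0.87 in pair 2.

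The genes that make and process snoRNPs had small differences between KO and WT. All 33 genes on these lists were tested, and 0 passed at adjusted p, as over all genes (0%), or at an unadjusted p under 0.05, where 3.03% of all genes were lower and 1.67% higher. They had log2 fold changes from −0.15 to 0.17 and a median of −0.01, where the median of 51 snoRNA genes was −0.58. Among C/D core proteins, the methyltransferase gene *Fbl* had 271, 311 and 302 normalized counts in KO and 278, 329 and 295 in WT, and the scaffold gene *Nop56* 1085, 1410 and 1414 in KO and 1064, 1349 and 1150 in WT. Among H/ACA core proteins, the pseudouridine synthase gene *Dkc1* had 730, 973 and 841 in KO and 805, 924 and 828 in WT. The genotypes overlapped in all 3 genes. *Parn*, a deadenylase that trims the 3′ ends of H/ACA RNAs, had 138, 158 and 166 in KO and 145, 212 and 153 in WT. *Tent4b*, a nuclear poly(A) polymerase that adds short tails to snoRNA precursors, had 419, 391 and 453 in KO and 522, 391 and 442 in WT. The largest SD over libraries in these 33 genes was 0.30 on the log2 scale. Of 14 noncoding host genes listed, 11 were matched by symbol and 0 passed the test, as over all genes (0%).

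Leaving out 1 littermate pair decided the result. Without pair 1, 20 snoRNA genes were lower in KO at adjusted p under 0.05 in limma (15 *Snord* and 5 *Snora*, 65 to 148 nt long), and 0 were higher, against 1.36% and 0.0243% of all genes. At an unadjusted p under 0.05, 46 were lower and 0 higher, against 5.09% and 1.93%. The log2 fold changes of the 20 called genes ran from −2.11 (*Snord42a*) to −0.75 (*Snora57*), and these 2 genes shared the smallest adjusted p in limma, 0.00948. Each genotype then holds 2 libraries. Without pair 3, 48 of the 51 log2 fold changes were positive, with a median of 0.27. Then 0 were called, and an unadjusted p under 0.05 was found for 0 lower and 2 higher genes, against 2.69% and 1.99% of all genes. Without pair 2, 0 were called in either direction (0.00812% of all genes were lower and 0% higher), none had an unadjusted p under 0.05 (2.37% of all genes did as lower and 1.16% as higher), and the median was −0.62. The sign of the median thus depended on which pairs were kept.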

How the data were processed

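The 6 RNA libraries were made from cultured splenic B cells, 3 from *Tent5c* KO mice and 3 from WT littermates. Groups, batch and replicate numbers came from the labels, and the study's methods state that 1 replicate is a KO and WT littermate pair. The deviations of paired libraries from the mean of their genotype were correlated over genes (0.328, 0.685 and 0.170).

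Per the labels and methods, the authors trimmed reads with cutadapt, aligned them with STAR 2.6.1a to GRCm38, counted properly paired fragments with mapping quality of at least 10 on exons, by strand, with featureCounts (Subread 1.6.3) and Gencode vM19, and scaled each library by its DESeq2 size factor. What the authors deposited is thus a signal in units of scaled fragment counts. Fragments that map to several places or touch exons of 2 genes are lost, which lowers repeated and exon-covered snoRNAs, and a read minimum of 30 nt after trimming applies.

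Whole fragments were recovered from the steps of each library. Gencode vM21 (GRCm38) gave types, positions, hosts and sequences for 54409 of the 54446 identifiers, and 37 were not in it. Exons can differ from the release used for counting. limma 3.58.1 (R 4.3.3, lmFit and eBayes with trend) was fitted to log2(normalized count + 1) of the 12322 genes whose mean was 10 or more, with terms for condition and batch, two-sided, Benjamini-Hochberg adjustment and a threshold of 0.05. A host is a gene of the same strand that spans the snoRNA gene. The recovered fragments were also fitted with edgeR 4.0.16 and DESeq2 1.42.0, and fits were tested on simulated data. Other alternatives were a pseudocount of 5, a mean of at least 50, no filter, quantile normalization, TMM factors, no block, and each pair left out. The genes named were the 5 highest *Snord* and *Snora* genes by mean normalized count, both *Scarna* members, members with the same sign in all 3 pairs, the *Snord116* family (0 members are of *Snord113*, *Snord114* or *Snord115*), snoRNP genes, and hosts of these and *Gas5*, *Snhg1* and *Rpl13a*. *Snord83b*, *Snord49b*, *Snord58b*, *Snora73a*, *Snord66*, *Scarna2*, *Snora20*, *Snora35*, the genes within *Nop56*, *Nop58*, *Ncl*, *Rpl23a* and *Wdr43*, the hosts *Gm42715* and *Rbmx* and the exceptions to a count were chosen after their values were seen. The host *Rps3a1* was also chosen after its values were seen. Members and lists were chosen with earlier results of these data known. Intervals and floors cover counting error only, and depth was 5393558 to 6793520 fragments.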

Additional observations from a re-analysis of the deposited data

How the results depend on the processing

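The libraries are littermate pairs, and the pair was a block in the reported fit. With no replicate block, 0 snoRNA genes were called, so that leaving the block out changed no call. The median log2 fold changes stayed at −0.66 for *Snord*, −0.39 for *Snora* and −0.38 for *Scarna9*. These medians could not move, since each pair holds 1 KO and 1 WT library. Leaving out 1 pair at a time gave 0 to 20 called snoRNA genes, 0 to 46 lower and 0 to 2 higher at an unadjusted p under 0.05, and median log2 fold changes of −1.53 to 0.30 for *Snord*, −0.86 to 0.25 for *Snora* and −1.20 to 0.36 for *Scarna9*. The mean log2 KO to WT ratio of the share of fragments ran from −0.80 to 0.25 for *Snord*, −0.41 to 0.13 for *Snora* and −1.19 to 0.38 for *Scarna* (−0.29, −0.14 and −0.37 with all pairs). The positive ends are without pair 3 and the negative ends without pair 1. The cause was not tested.

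For single genes, leaving out 1 pair gave log2 fold changes of −0.14 to 0.018 for *Snord17*, −0.80 to 0.16 for *Snord118*, −1.01 to 0.57 for *Snord13*, −0.29 to 0.11 for *Snord15a* and −1.39 to 0.34 for *Snord104*. They were −0.24 to 0.071 for *Snora73b*, −0.23 to 0.15 for *Snora23*, −0.75 to 0.095 for *Snora57*, −0.85 to 0.25 for *Snora78*, −0.79 to 0.28 for *Snora21* and −1.20 to 0.36 for *Scarna9*. *Snord118* and *Snora57* passed the threshold without pair 1 (limma, adjusted p = 0.0172 and 0.00948). With quantile normalization *Snora73b* changed sign to 0.0093. *Snord72* kept its sign in all alternatives in which it was tested, and with a mean of at least 50 it was not tested.

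With no filter on low values, 1 member was higher at an unadjusted p under 0.05, and 2 were lower and 2 higher in all 3 pairs. With a mean of at least 50, 0 were lower in all 3 pairs. These filters change which genes are tested. Without genes under other exons, the median levels were 55.7 for *Snord* and 659 for *Snora*, instead of 0. Pseudocount, TMM factors, edgeR and DESeq2 changed no call and no sign of a median. Depth limits genes with few fragments: a gene at 0 allows up to 3 fragments per library.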
